A study of Mus musculus with 24 samples.

Results

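The hair keratin-associated protein genes (Krtap genes) were followed through skin of mice with alopecia areata (AA), during and after systemic inhibition of Janus kinase 1 (JAK1). Members were all rows of the deposited count table whose Ensembl identifier has a GENCODE M21 symbol that starts with Krtap. This rule found 55 members among 39017 gene IDs. The annotation names 58 such genes, and Krtap28-10, Krtap28-13 and Krtap10-10 were not analysed here. In AA skin all 52 members with enough counts to be tested were higher than in healthy skin, and in systemic JAK1i skin all 52 were lower than in AA skin. Most of them had few counts outside libraries with high Krtap levels, AA among them. The need for enough counts therefore favoured members high in AA skin. A single member, Krtap3-2, was detected at 11.5 to 25.3 CPM (library-size normalized counts) in every healthy library, where its neighbour Krtap3-1 had 0 to 1.89 CPM.

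RNA was sequenced from dorsal skin of female C3H/HeJ mice, labelled as about 30 weeks old in all groups. There were 6 libraries in each of 4 groups, with replicate letters A to F. AA in this model is induced by grafting skin of an affected mouse, and the AA mice carry the label treatment None although their sample names speak of a vehicle. The 8w off treatment libraries came from AA mice that had received 100 mg/kg of the oral JAK1 inhibitor AZ13748709 once daily for 4 weeks and had then gone 8 weeks without it, sampled at week 12. The systemic JAK1i libraries are biopsies of living AA mice at the end of the 4 weeks of dosing. The AA and healthy libraries were taken at week 12. By the study's methods the systemic JAK1i and 8w off treatment libraries came from the same 6 mice, so the 2 groups are not independent. The labels do not say which letters belong together. They give both groups the same approximate age, although by these methods the samplings were 8 weeks apart. Week of sampling, and live against terminal sampling, cannot be told apart from treatment in any comparison with systemic JAK1i.

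Keratin-associated proteins fill the space between the keratin filaments of the hair shaft and are bound to them largely through disulfide bridges. Their genes are short, lie in dense clusters and are switched on late, in precursors of the hair cortex and cuticle above the dividing matrix of the growing (anagen) follicle. Resting (telogen) follicles make no new shaft. By amino acid makeup the proteins are grouped as high sulfur, ultra-high sulfur and high glycine-tyrosine.

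The 55 members lie in 4 clusters of the mouse genome (GRCm38). Chromosome 7 holds 5 members, all Krtap5, within 130.1 kb, and chromosome 10 holds Krtap12-1 and Krtap10-4. Chromosome 11 holds 23 members of 9 subfamilies within 443.9 kb, and chromosome 16 holds 25 members of 15 subfamilies within 960.5 kb. Subfamily number and cluster mostly coincide, but Krtap16-1 lies on chromosome 11 and Krtap16-3 on chromosome 16. The transcript used for each of the 55 has a single exon, 54 members are protein coding, and Krtap19-9a is annotated as a processed pseudogene. Krtap14 and Krtap15 have 2 annotated transcripts each and span more than the 856 and 851 bases of those used. A single exon is therefore not shown for these genes as a whole. Translated from the annotated coding sequence, 18 members exceed 30% cysteine (ultra-high sulfur), and 15 of the rest hold at least 35% glycine plus tyrosine (high glycine-tyrosine). The other 21 coding members were taken as high sulfur, a class that by this rule also holds Krtap15, with 4.00% cysteine, and Krtap7-1, with 29.9% glycine plus tyrosine.

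The start sites of the members share a feature that the rule did not use. In RefSeq promoters (GRCm38.p6, 50 of the 55 members matched), the letters TATAA, the core of a TATA box, were found on the strand of the gene within 40 to 20 bases before the annotated start in 35 of 50 members (70.0%), against 1043 of 27025 promoters of all genes (3.86%). Over the whole 250 bases before the start and on both strands, TATAA stood in 98.0% of members and in 23.5% of all promoters. The letters CTTTGAA, a form of the site bound by the Wnt effector LEF1 and its relatives, were found on either strand in 7 members (14%), among them Krtap1-5, Krtap11-1, Krtap14, Krtap15 and Krtap16-3, and in 4.64% of all promoters. Neither motif contains the other, and a match is a description of the letters only. The last 100 bases before the start are printed for the 3 neighbouring Krtap3 genes, whose levels differ, and for 2 of the most abundant members, with TATAA in capitals:
Krtap3-2, chr11:99556854-99556953, minus strand: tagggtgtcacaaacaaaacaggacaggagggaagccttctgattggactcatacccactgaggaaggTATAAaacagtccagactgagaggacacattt
Krtap3-3, chr11:99550864-99550963, minus strand: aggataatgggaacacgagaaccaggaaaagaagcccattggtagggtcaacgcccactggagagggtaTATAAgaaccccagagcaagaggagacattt
Krtap3-1, chr11:99566631-99566730, minus strand: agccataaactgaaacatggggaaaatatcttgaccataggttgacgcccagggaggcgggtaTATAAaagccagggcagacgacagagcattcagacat
Krtap8-1, chr16:89487953-89488052, minus strand: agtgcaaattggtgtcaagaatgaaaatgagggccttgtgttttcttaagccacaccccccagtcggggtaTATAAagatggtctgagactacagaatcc
Krtap11-1, chr16:89571184-89571283, minus strand: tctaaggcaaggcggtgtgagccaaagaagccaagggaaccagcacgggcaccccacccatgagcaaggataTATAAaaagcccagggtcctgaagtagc
Aligned over these 100 bases, Krtap3-2 shares 62.0% of alignment columns with Krtap3-3 and 56.0% with Krtap3-1, and Krtap3-3 shares 61.2% with Krtap3-1. All 5 sequences hold TATAA near the start, Krtap3-2 included.

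Total counts per library ran from 3444193 to 11233020, and the members together took 96 to 24758 of them. The summed level of the 55 members was 23, 1596 and 3112 CPM (lowest, median and highest of 6) in 8w off treatment skin, 17.8, 60.5 and 169 CPM in systemic JAK1i skin, 859, 2160 and 4736 CPM in AA skin and 22.9, 30.9 and 181 CPM in healthy skin. Thus no AA library overlapped a systemic JAK1i or healthy library. The 8w off treatment libraries fell into 2 sets. Libraries B, C, D and F summed to 2596, 1918, 1275 and 3112 CPM, within the AA range, whereas A and E summed to 77.8 and 23 CPM, within the healthy range. The Krtap share of all counts was 0.00697% in A and 0.00198% in E (Wilson 95% intervals 0.00614 to 0.00791% and 0.00163 to 0.00239%, counting error only). For all 52 tested members A and E were both below B, C, D and F. A and E were set apart by the sum of these same members. The members also share their libraries, so this count is a description and no separate support. The share of all genes tested that separate in this way was not determined. Lists of genes of other cells also set A and E apart. Skeletal muscle genes summed to 28091 CPM in A and 29969 CPM in E, against 6435 to 18404 CPM in B, C, D and F, and interfollicular epidermis genes to 12248 and 13452 CPM, against 6172 to 7729 CPM. Melanocyte genes summed to 18.8 CPM in A and 42.5 CPM in E, against 106 to 184 CPM, and fibroblast genes to 2315 and 2653 CPM, against 2772 to 4006 CPM. Hair follicle lists were also lower in A and E. Inner root sheath genes summed to 177 and 54.8 CPM, against 6483 to 15168 CPM. Hair shaft keratins summed to 73.6 and 8.63 CPM, against 1584 to 3725 CPM. Matrix regulators and shaft enzymes summed to 487 and 547 CPM, against 832 to 1328 CPM. Bulge and outer root sheath genes summed to 626 and 502 CPM, against 742 to 1142 CPM. Proliferation genes did not separate them (451 and 538 CPM, against 501 to 861 CPM). Dermal adipocyte and T cell genes did not either. The part of this difference in makeup in the low Krtap levels of A and E was not tested. Among healthy libraries F (181 CPM) and D (71.8 CPM) were the highest. In whole skin, fewer cells that make shaft proteins and less RNA per such cell cannot be told apart.

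**Figure D1:**
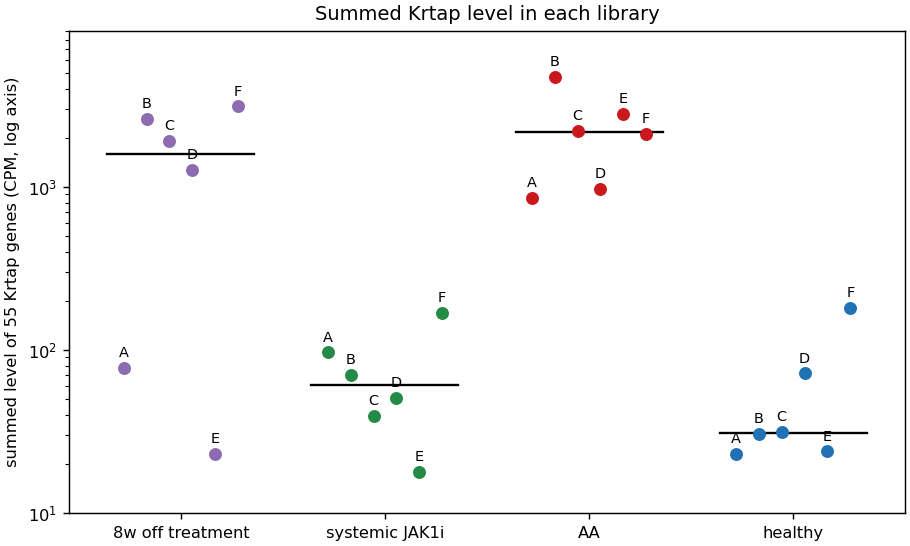
Summed level of the 55 Krtap genes in each of the 24 libraries (TMM-normalized CPM, log axis), 1 point a library with its replicate letter and a line at the group median. The 6 AA libraries lie between 859 and 4736 CPM, above all systemic JAK1i and healthy libraries, while 8w off treatment A and E lie at 77.8 and 23 CPM.

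AA against healthy skin asks how far shaft protein transcripts differ in the disease model. All 52 tested members rose in AA skin (edgeR quasi-likelihood test, Benjamini-Hochberg adjusted p below 0.05 over 16248 genes), where 20.9% of all genes tested rose. Most members passed the filter on low counts through libraries with high Krtap levels, AA among them. Members low in all groups were not tested, so the result of 52 of 52 is partly set by the filter. The median log2 fold change was 5.66 and the range 1.08 to 7.39, against a median of 0.00 over all genes tested, and the adjusted p of members ran from 9.51e-06 to 0.00912. At the study's stricter thresholds (FDR 0.001 and 4-fold) 50 of the 52 were higher. In 48 of 52 members no AA library overlapped a healthy library, against 8.17% of all genes tested, and the 4 with overlap were Krtap3-2, Krtap31-2, Krtap27-1 and Krtap19-1. The size of the rise depended on healthy library F, the highest of its group. Without F the same number of members was called at a median of 6.93, and 27 of 31 named members moved by more than 1.5-fold, Krtap8-1 to 7.74 and Krtap14 to 8.72. Without healthy D and F, left out after their levels were seen, the median was 8.09. Without healthy D alone Krtap17-1 was at 7.29. Without AA library B, the highest of its group, Krtap5-2 was at 6.55, Krtap19-2 at 6.16 and Krtap19-1 at 5.04.

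Per transcript length, the most abundant member in AA skin was the glycine- and tyrosine-rich Krtap16-3, at 288 ± 237 TPM (SD, n = 6), against 5.52 ± 11 TPM in healthy skin. Krtap8-1, which is also glycine- and tyrosine-rich, followed at 224 ± 158 TPM in AA skin, and Krtap7-1 at 178 ± 123 TPM. Their SDs exceed the gaps between them, so the order of these 3 is not resolved. Counts gave Krtap8-1 93.1, 226 and 466 CPM (lowest, median, highest) in AA skin and 0.170, 0.266 and 18.9 CPM in healthy skin, a log2 fold change of 5.81 (SE 1.02, adjusted p = 0.000189). Every AA library lay above every healthy one. Krtap7-1 had 75.9, 214 and 400 CPM in AA skin, against 0, 0.212 and 17.5 CPM in healthy skin, with a log2 fold change of 5.68 (SE 1.01).

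Among high sulfur members Krtap11-1 had 85.1, 181 and 353 CPM in AA skin and 0, 0.173 and 9.77 CPM in healthy skin, with a log2 fold change of 6.49 (SE 1.09, adjusted p = 4.44e-05). Krtap1-5, on chromosome 11, had 54.3, 132 and 336 CPM in AA skin and 0, 1.18 and 10.3 CPM in healthy skin. Krtap15 had 45.9, 139 and 303 CPM in AA skin and 0, 0.227 and 10.8 CPM in healthy skin. Groups of these 3 members did not overlap. Krtap14 and Krtap15 overlap each other and 4930553J12Rik on the annotation, and the strand setting of the count is not given, so that reads of these genes may not be told apart.

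The largest fitted rises belonged to members with few or no counts in healthy skin. The ultra-high sulfur gene Krtap5-1 had 106 counts over the 6 AA libraries and 0 over the 6 healthy libraries, at least 38.3-fold higher when 3 counts over the group are taken as the floor. Krtap5-2 had 257 counts in AA skin and 1 in healthy skin, a ratio of 279 with a 95% counting interval of 49.6 to 11058. The KAP5 proteins are known from human and sheep hair as proteins of the cuticle. Krtap9-5 followed with 23.1 ± 18 CPM in AA skin and 0.114 ± 0.208 CPM in healthy skin (SD, n = 6 each) and a log2 fold change of 7.35 (SE 2.07). Krtap19-2 (6.83, SE 1.71) and Krtap5-5 (6.78, SE 1.73) completed the 5 largest rises. With Krtap5-1 set to its bound the median over the 52 was 5.64.

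Compared by cluster, the median log2 fold change in AA against healthy skin was 6.78 for the 5 chromosome 7 members, 5.58 for the 2 of chromosome 10, 5.49 for the 22 tested on chromosome 11 and 5.68 for the 23 on chromosome 16. By class it was 5.60 for 14 high glycine-tyrosine members, 5.71 for 20 high sulfur members and 5.68 for 17 ultra-high sulfur members. SEs of single members ran from 0.32 to 2.07, and differences between clusters or classes were not tested. Of the 8 Krtap4 genes, which encode ultra-high sulfur proteins, the 7 tested members lay between 4.85 and 5.88. Of the small chromosome 16 subfamilies, Krtap6 (4 members, 5.01 to 5.60), Krtap22-2 (5.37) and Krtap21-1 (5.80) are glycine- and tyrosine-rich, and Krtap24-1 (6.75), Krtap13-1 (6.22) and Krtap26-1 (5.99) are high sulfur by the rule used here.

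The leading members of the smaller subfamilies followed the same pattern. Krtap17-1, whose protein is rich in cysteine, glycine and tyrosine, had 15.8, 25.2 and 61.2 CPM in AA skin and 0, 0.170 and 0.989 CPM in healthy skin, with the smallest adjusted p of the members (log2 fold change 6.59, SE 1.29, adjusted p = 9.51e-06). Krtap2-4 had 7.81, 21.6 and 39.2 CPM in AA skin and 0, 0.343 and 3.26 CPM in healthy skin. Krtap10-4 had 2.49, 4.59 and 14.2 CPM in AA skin and 0, 0 and 0.514 CPM in healthy skin. In all 3 the groups were apart. Krtap12-1, its neighbour on chromosome 10, had 2.94, 6.83 and 14 CPM in AA skin and 0, 0.0711 and 0.343 CPM in healthy skin. Krtap29-1, the least abundant tested member per length in AA skin (1.3 TPM), had 1.36, 2.62 and 5.74 CPM in AA skin and 0, 0 and 0.171 CPM in healthy skin. Krtap27-1 had 1.38, 5.08 and 6.69 CPM in AA skin and 0, 0 and 1.54 CPM in healthy skin, where library F reached into the AA range.

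**Figure D2:**
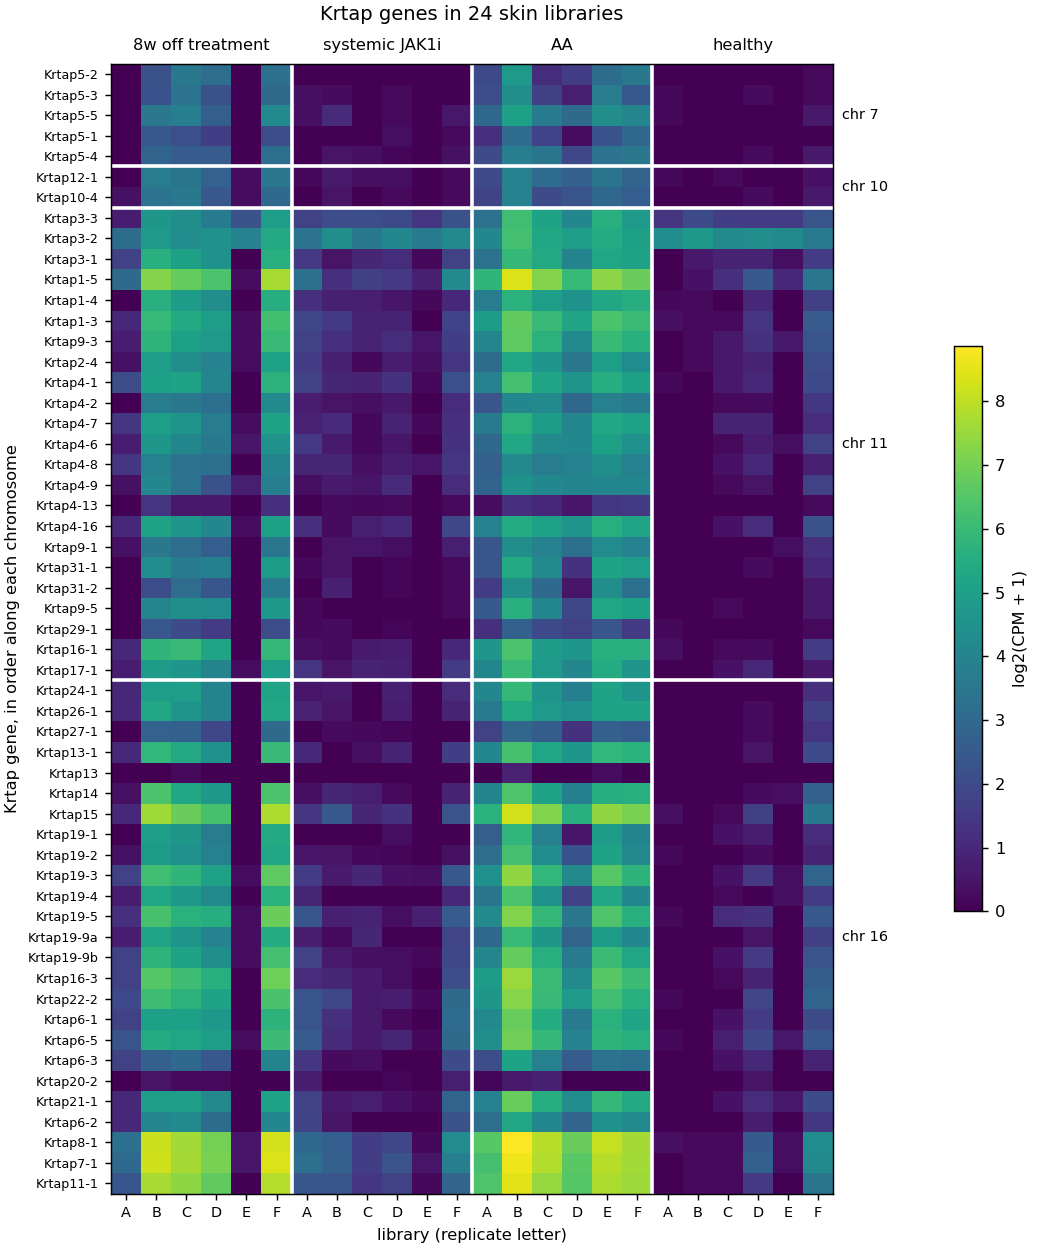
Level of each of the 55 Krtap genes (rows, in order along chromosomes 7, 10, 11 and 16) in the 24 libraries (columns, by group and replicate letter), as log2(CPM + 1). AA libraries and 8w off treatment B, C, D and F are high for most members. Krtap3-2 is visible in all 24 columns, and Krtap13, Krtap20-2 and Krtap4-13 are near 0 in all groups. AA library D is also low for Krtap5-1 (0.230 CPM), Krtap19-1 and Krtap31-2 (0.459 CPM each) and Krtap5-3 (0.689 CPM).

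Systemic JAK1i against AA skin asks how these transcripts differed under JAK1 inhibition, and shares its AA libraries with the comparison above. All 52 tested members fell (edgeR, adjusted p between 8.73e-06 and 0.000705), where 24.8% of all genes tested fell, with a median log2 fold change of -5.36 and a range of -8.63 to -1.46. Here too the filter on low counts favoured members high in AA skin, which partly sets the result of 52 of 52. In 49 of 52 members no systemic JAK1i library overlapped an AA library, against 13.8% of all genes tested, and the exceptions were Krtap5-1, Krtap3-2 and Krtap31-2. Krtap8-1 had 0.143, 4.02 and 18.5 CPM in systemic JAK1i skin, against 93.1, 226 and 466 CPM in AA skin (log2 fold change -5.34, SE 0.94). Krtap11-1 had 0.143, 3.15 and 6.45 CPM in systemic JAK1i skin, against 85.1, 181 and 353 CPM in AA skin (-5.93, SE 0.94). Without systemic JAK1i library F, 7 named members moved by more than 1.5-fold, among them Krtap8-1 to -6.12 and Krtap21-1 to -5.89.

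The largest falls were again at genes that came close to 0. Krtap5-2 had no count in the 6 systemic JAK1i libraries and 257 in the AA libraries, at least 121-fold lower in systemic JAK1i skin. Krtap9-5 had 2 counts in systemic JAK1i skin and 652 in AA skin, a ratio of 0.00217 (95% counting interval 0.000262 to 0.00788). Krtap19-1, a small glycine- and tyrosine-rich member, had 3 counts in systemic JAK1i skin and 589 in AA skin, a ratio of 0.00361 (0.000742 to 0.0106). Krtap31-1 (-7.29, SE 1.94) and Krtap19-2 (-6.83, SE 1.53) were the other members among the 5 largest falls. Single libraries set the size of some of these. Without AA library B, Krtap5-2 was at -7.80, Krtap19-1 at -7.14 and Krtap19-2 at -6.16, and without systemic JAK1i library D, which holds all 3 counts of Krtap19-1 there, Krtap19-1 was at -9.78 and Krtap5-1 at -6.09. Krtap5-5 was at -6.23 without systemic JAK1i library B. By cluster the medians were -5.56 on chromosome 7, -5.19 on chromosome 10, -5.03 on chromosome 11 and -5.59 on chromosome 16.

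Systemic JAK1i skin was not told apart from healthy skin for any member. With edgeR 0 of 52 were called, 0 had an unadjusted p below 0.05, and DESeq2 and limma on TPM called 0 as well. Of all genes tested 0.511% were called higher and 0.535% lower. The median log2 fold change was 0.30, with 40 members above 0 and 12 below, and the smallest adjusted p was 0.565. SEs were large at these counts. Krtap8-1, for instance, had 0.143, 4.02 and 18.5 CPM in systemic JAK1i skin and 0.170, 0.266 and 18.9 CPM in healthy skin. Of the subfamilies with several tested members, Krtap6 had the highest median (1.15, 4 members). Krtap19-1 had the lowest single value (-2.09), from 3 counts in systemic JAK1i skin and 12 in healthy skin. The median of the members depended on single libraries. It was 1.69 without healthy library F and -0.02 without systemic JAK1i library F, with 0 members called in either case. Without healthy D and F, left out after their levels were seen, the median was 2.82, again with 0 members called. Counts this low do not resolve a difference between the groups.

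**Figure D3:**
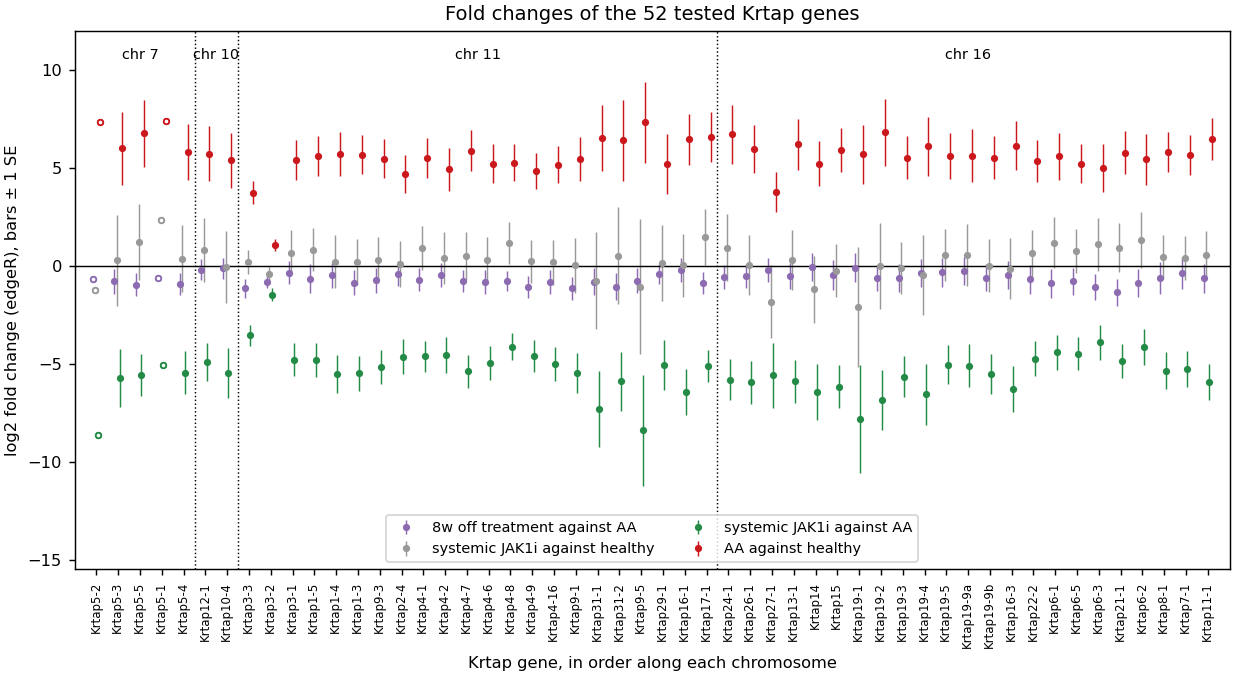
Log2 fold change (edgeR) of the 52 tested Krtap genes, in order along each chromosome, with bars of 1 SE, for 4 comparisons. AA against healthy lies above 0 and systemic JAK1i against AA below 0 for all 52, with Krtap3-2 nearest to 0 in both (1.08 and -1.46). Open circles mark Krtap5-1, without counts in healthy skin, and Krtap5-2, without counts in systemic JAK1i skin. No SE is given for them. Where its group without counts is compared, the fitted value of each depends on the prior count.

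After 8 weeks off treatment, 51 of 52 members were higher than in systemic JAK1i skin (edgeR), where 19.4% of all genes tested were higher, with a median log2 fold change of 4.68. Against healthy skin 51 of 52 were higher as well, with a median of 5.14, where 16.9% of all genes tested were higher. The member not called in either comparison was Krtap3-2. Both counts are partly set by the filter on low counts, which favoured members high in AA or 8w off treatment skin. Without healthy library F the median against healthy skin was 6.34, with 51 called, and 27 of 31 named members moved by more than 1.5-fold. Without healthy D and F it was 7.45. These means rest on libraries B, C, D and F. Each of B and F exceeded all healthy libraries in 52 members and each of C and D in 51, whereas A did so in 5 members and E in 0. As a result, in none of the 52 members were the 8w off treatment libraries clear of the systemic JAK1i or of the healthy libraries. The shares over all genes tested are not given here for these counts, which are a description only. With limma on log2(TPM + 0.1), where the median of all genes was shifted by -1.16 between 8w off treatment and systemic JAK1i skin, 28 members were called, and 47 after each library was centred on its median.

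Krtap7-1 had 0.442, 168 and 334 CPM in 8w off treatment skin, against 0.428, 4.65 and 12.9 CPM in systemic JAK1i skin (log2 fold change 4.92, SE 0.93, adjusted p = 0.000586). The 4 libraries B, C, D and F of 8w off treatment skin held 134 to 334 CPM of it, and A and E 7.14 and 0.442 CPM. Krtap16-1, a high sulfur member of chromosome 11, had 0, 45.1 and 61.6 CPM in 8w off treatment skin and 0, 0.422 and 0.993 CPM in systemic JAK1i skin (6.23, SE 1.16). Krtap14 had 0, 32.3 and 81.4 CPM in 8w off treatment skin and 0, 0.491 and 0.920 CPM in systemic JAK1i skin (6.37, SE 1.43). Krtap5-2, Krtap19-1, Krtap9-5 and Krtap31-1, the largest falls under systemic JAK1i, were also among the 5 largest rises here, and both comparisons use the same systemic JAK1i libraries. Without systemic JAK1i library F, 7 named members moved by more than 1.5-fold here, Krtap21-1 to 4.55 and Krtap8-1 to 5.54 among them. Without library D Krtap19-1 was at 9.68 and Krtap5-1 at 5.48, and without library B Krtap5-5 was at 5.28.

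Set against AA skin, no member of 8w off treatment skin was called (edgeR, 0 of 52, where 0.726% of all genes tested were higher and 0.64% lower). DESeq2 also called 0, and limma on log2(TPM + 1) called 2 lower. All 52 fold changes were below 0, with a median of -0.64 and a range of -1.34 to -0.06 (the median was -0.11 without A and E, left out after their levels were seen), and 2 members, Krtap3-3 and Krtap3-2, had an unadjusted p below 0.05. The members share their libraries, so 52 equal signs are not 52 separate observations, and A and E were low in all of them. By class the median was -0.63 for high glycine-tyrosine members, -0.48 for high sulfur members and -0.78 for ultra-high sulfur members, with SEs of single members from 0.31 to 0.82. Krtap21-1 was lowest (-1.34), with 0, 23.5 and 32.6 CPM in 8w off treatment skin and 14.1, 42.5 and 112 CPM in AA skin.

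Krtap3-2 stood apart from all other members. It encodes a high sulfur protein of 99 residues with 20.2% cysteine, as does Krtap3-3, and lies at chr11:99555823-99556853 between Krtap3-3 (chr11:99550130-99550865) and Krtap3-1 (chr11:99566027-99566630). In healthy skin it had 11.5, 18.1 and 25.3 CPM (18.4 ± 4.45, SD, n = 6), and per transcript length it had the highest mean of any member there, at 10.2 ± 1.62 TPM, as in systemic JAK1i skin (11 ± 2.49 TPM). Levels were 7.78, 20.9 and 40.1 CPM in 8w off treatment skin, 9.28, 13.8 and 20.05 CPM in systemic JAK1i skin and 16.4, 34.9 and 74.0 CPM in AA skin. The groups overlap. It was higher in AA than in healthy skin (log2 fold change 1.08, SE 0.32, adjusted p = 0.00912) and lower in systemic JAK1i than in AA skin (-1.46, SE 0.32, adjusted p = 0.000705). Neither call was reached with limma on log2(TPM + 0.1), which gave 0.83 and -0.73, whereas both were with centred TPM. In 8w off treatment skin it was not called against systemic JAK1i (0.65, SE 0.32, adjusted p = 0.12) or healthy skin (0.27, SE 0.32, adjusted p = 0.55). Both of these fold changes were below 0 on uncentred log2(TPM + 0.1) (-0.42 against systemic JAK1i and -0.32 against healthy skin) and above 0 on centred TPM. Without 8w off treatment library A the comparison with systemic JAK1i was called (0.81).

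Its neighbours behaved differently. Krtap3-1 had 8.94, 35.5 and 58.7 CPM in AA skin and 0, 0.659 and 1.89 CPM in healthy skin (log2 fold change 5.43, SE 1.02). Krtap3-3 lay between, with 8.83, 30.7 and 69.4 CPM in AA skin and 1.56, 2.01 and 4.12 CPM in healthy skin (3.75, SE 0.57), the lowest rise after Krtap3-2 and next to Krtap27-1 (3.76, SE 1.03). Of the 76-base windows of the transcripts, the read length of the study, 27% in Krtap3-2, 39.0% in Krtap3-3 and 4.35% in Krtap3-1 also occur in another gene, in each case a Krtap3 gene. How reads that fit several genes were counted is not given, and whether shared reads carry part of the Krtap3-3 level in healthy skin was not tested. Krtap3-2 was at 20.6 ± 11.7 TPM in AA skin, and Krtap3-3 at 40.9 ± 29.1 TPM in AA skin and 3.61 ± 1.12 TPM in healthy skin (SD, n = 6 each), so that Krtap3-3 had the higher mean of the pair in AA skin, where their SDs overlap, and the lower mean in healthy skin.

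**Figure D4:**
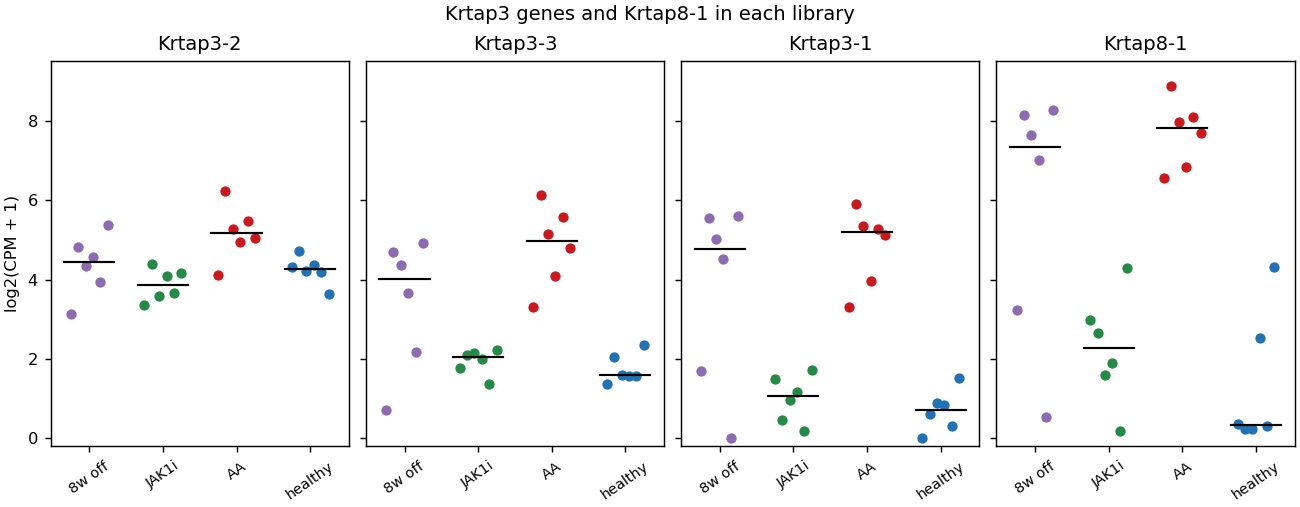
Krtap3-2, Krtap3-3, Krtap3-1 and Krtap8-1 in each library as log2(CPM + 1), 1 point a library with a line at the group median, for 8w off treatment, systemic JAK1i, AA and healthy skin. Krtap3-2 held 11.5 to 25.3 CPM in healthy skin, where Krtap3-1 held 0 to 1.89 CPM.

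The makeup of the Krtap counts differed between the groups. Krtap3-2 took 1.01, 1.53 and 62.5% of them (lowest, median, highest) in 8w off treatment skin, 9.63, 28.2 and 64.8% in systemic JAK1i skin, 1.53, 1.63 and 3.10% in AA skin and 6.34, 64.4 and 82.8% in healthy skin. In healthy library B it took 144 of 174 counts (82.8%, Wilson 95% interval 76.5 to 87.6%), and in 8w off treatment library E 65 of 104 (62.5%, 52.9 to 71.2%). The chromosome 16 members took 8.65, 66.7 and 69.6% in 8w off treatment skin, 12.8, 40.1 and 60.6% in systemic JAK1i skin, 58.9, 65.3 and 68.3% in AA skin and 1.72, 12.6 and 63.9% in healthy skin. The AA libraries were alike in this, despite a wide range of summed levels. In healthy library F, which had the highest sum of its group, chromosome 16 took 63.9%, close to the AA libraries. Krtap3-2 is part of the whole here, so a larger share of it leaves less for chromosome 16. Chromosome 16 shares without Krtap3-2 were not determined. Without Krtap3-2 the summed level was 4.12, 10.1 and 170 CPM in healthy skin and 842, 2125 and 4662 CPM in AA skin.

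**Figure D5:**
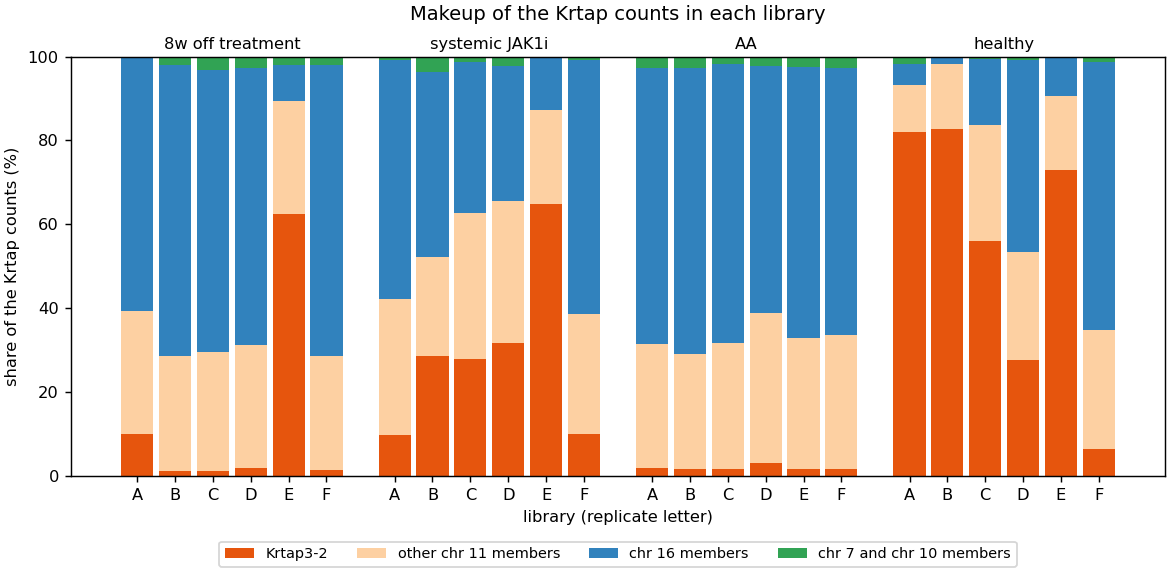
Share of all Krtap counts (percent) taken by Krtap3-2, by the other chromosome 11 members, by chromosome 16 members and by chromosome 7 and 10 members in each library. Krtap3-2 takes 1.53 to 3.10% in AA skin and 6.34 to 82.8% in healthy skin, and libraries with few Krtap counts have the larger shares.

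Members rose and fell together from library to library. In AA skin library B was highest for 49 of 52 members, A was lowest for 30 and D for 21. In healthy skin library F was highest for 46, and in 8w off treatment skin F was highest for 39 and E lowest for 35. How often these libraries were highest or lowest over all genes tested was not determined. Over the 24 libraries, the log2 CPM of single members correlated with the log2 summed level at Pearson r of 0.995 for Krtap16-3 and 0.709 for Krtap3-2, the lowest of those tested. These values are a description, since members are part of the sum and the 4 groups set most of the range. The 3 other genes most like the sum by this measure were Gm11938 (r = 0.995), Gprc5d (r = 0.992) and the hair keratin gene Krt83 (r = 0.990). Gm11938 lies at chr11:99602646-99603308, inside the chromosome 11 Krtap cluster, although its symbol kept it out of the members. Gprc5d encodes an orphan G protein-coupled receptor known from the hard keratinizing cells of hair. Krt83 had 0.442, 291 and 501 CPM in 8w off treatment skin, 0.285, 4.42 and 13.1 CPM in systemic JAK1i skin, 135, 313 and 653 CPM in AA skin and 0.176, 0.751 and 20.6 CPM in healthy skin.

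Other hair follicle genes were set beside the members by lists. Of 15 tested hair shaft keratin genes (16 listed) 14 were higher in AA than in healthy skin (median log2 fold change 5.86), 14 were lower in systemic JAK1i than in AA skin (-5.59), and Krt84 was not called in either (1.45, SE 0.79, and -0.99, SE 0.75). Their summed level was 8.63 to 3725 CPM in 8w off treatment skin, 8.27 to 135 CPM in systemic JAK1i skin, 1131 to 4844 CPM in AA skin and 5.97 to 171 CPM in healthy skin. All 9 genes of the inner root sheath, the sleeve that moulds the shaft, were higher in AA than in healthy skin (median 5.76), and all 9 were lower in systemic JAK1i than in AA skin (-5.35), with summed levels of 54.8 to 15168 CPM in 8w off treatment skin, 25.1 to 482 CPM in systemic JAK1i skin, 5972 to 17917 CPM in AA skin and 12.1 to 713 CPM in healthy skin. The hair matrix regulators and shaft enzymes changed less, with 11 of 12 higher in AA skin at a median of 2.27. Among them Hoxc13, a homeobox factor known to drive hair keratin genes, had a log2 fold change of 2.14 (SE 0.35), and Lef1 2.46 (SE 0.42), whereas Padi3, a protein-citrullinating enzyme of the follicle, and S100a3, a calcium-binding protein of the hair cuticle, had 5.81 (SE 0.97) and 5.92 (SE 0.83). Gata3, a factor of the inner root sheath, was lower in AA skin (-0.38, SE 0.15).

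Lists of genes of other cells differed in how many members were called. Of all genes tested 19.3% were lower in AA than in healthy skin and 22.9% higher in systemic JAK1i than in AA skin. All 5 proliferation genes were higher in AA than in healthy skin (median 1.29) and lower in systemic JAK1i than in AA skin (-1.55), with summed levels of 219 to 335 CPM in systemic JAK1i skin, 555 to 1007 CPM in AA skin and 247 to 435 CPM in healthy skin. All 5 melanocyte genes were higher in AA skin (median 2.00, summed 33.0 to 281 CPM against 18.4 to 65.6 CPM in healthy skin). Of 5 T cell genes 3 were higher in AA skin (18.6 to 93.4 CPM against 8.61 to 16.9 CPM in healthy skin, where Cd8b1 was at 0 in all 6 libraries), and 4 were lower in systemic JAK1i than in AA skin (8.77 to 22.3 CPM in systemic JAK1i skin). All 4 dermal adipocyte genes were lower in AA skin (37.5 to 206 CPM against 98.4 to 661 CPM in healthy skin) and higher in systemic JAK1i than in AA skin, and 3 of 6 bulge and outer root sheath genes were lower (350 to 891 CPM against 1080 to 2342 CPM in healthy skin). Of the interfollicular epidermis genes 2 of 6 were higher and 1 lower (7265 to 14264 CPM in AA skin, 6119 to 14994 CPM in healthy skin), and of 4 fibroblast genes 1 was lower (1870 to 8299 CPM in AA skin, 2428 to 6750 CPM in healthy skin). For both lists the count of lower genes is near the share over all genes. Skeletal muscle genes, with 0 of 5 called, ranged from 5106 to 13692 CPM in AA skin and from 217 to 16962 CPM in healthy skin. The part of these differences in the Krtap values was not tested.

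In 8w off treatment skin most genes of the hair follicle lists were higher in the same comparisons as the members. In summed level these lists were lower in A and E than in B, C, D and F. Against systemic JAK1i skin 14 of 15 hair shaft keratins (median log2 fold change 5.24), all 9 inner root sheath genes (4.91) and all 12 matrix regulators and shaft enzymes (2.18) were higher, and against healthy skin 14 of 15 (5.46), 9 of 9 (5.03) and 11 of 12 (2.01). All 5 proliferation genes were higher in both, at medians of 1.24 against systemic JAK1i skin and 0.996 against healthy skin, with summed levels of 451 to 861 CPM in 8w off treatment skin, 219 to 335 CPM in systemic JAK1i skin and 247 to 435 CPM in healthy skin. Of the 5 melanocyte genes 3 were higher than in systemic JAK1i skin and 4 than in healthy skin. Of the 5 T cell genes 3 were higher and 1 lower in each comparison. Other lists were lower, where of all genes tested 16.6% were lower against systemic JAK1i skin and 15.7% against healthy skin. All 4 dermal adipocyte genes were lower in both (-2.04 and -1.38), at 89.5 to 135 CPM in 8w off treatment skin, 323 to 551 CPM in systemic JAK1i skin and 98.4 to 661 CPM in healthy skin. Of the 4 fibroblast genes all were lower against systemic JAK1i skin (-1.18) and 3 against healthy skin (-0.77), at 2315 to 4006 CPM in 8w off treatment skin, 4677 to 9018 CPM in systemic JAK1i skin and 2428 to 6750 CPM in healthy skin. Of the 6 bulge and outer root sheath genes 1 was higher and 2 lower against systemic JAK1i skin, and 3 were lower against healthy skin. Few of the interfollicular epidermis genes (1 of 6 higher against systemic JAK1i skin, 1 lower against healthy skin) or skeletal muscle genes (1 of 5 lower against systemic JAK1i skin, 0 called against healthy skin) were called. The part of these differences in the Krtap values was not tested. The lists were chosen with earlier results of these data known, and these counts are not independent support.

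The other 3 members did not pass the filter on low counts. Krtap13 had 1 count in 8w off treatment skin, 0 in systemic JAK1i skin, 5 in AA skin and 0 in healthy skin. Krtap20-2 had 4, 9, 7 and 2 counts in 8w off treatment, systemic JAK1i, AA and healthy skin, and Krtap4-13 had 21, 5, 30 and 1. No test was made for these. Most tested members passed the filter through AA libraries and 8w off treatment B, C, D and F. Counts of tested members that were higher in those groups therefore leave out members low in all groups. Sequence shared between genes touched 32 of the 55 members in at least 1 window of 76 bases, and for Krtap4-13 alone it was over 50%. The median log2 fold change in AA against healthy skin was 5.68 for the 22 tested members with no shared window and 5.61 for the 30 with some. Krtap12-1 and Krtap10-4 lie within the gene Tspear and Krtap24-1 overlaps Gm49688 on the other strand, and their values are uncertain to that degree.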

How the data were processed

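RNA of dorsal skin was sequenced in 24 libraries. Per the labels and methods, the authors aligned reads to mm10 (GRCm38) with HISAT2 2.0.1 and deposited gene counts made with featureCounts 1.4.4. The annotation release, strand setting and treatment of reads that fit several genes are not stated in any source used. The labels name a ribosomal depletion kit and, in the descriptions, polyA RNA. By the study's methods the mouse libraries were made from total RNA with ribosomal depletion, unfragmented because RNA integrity was low. The effect of low RNA integrity on single libraries was not tested. A second deposited table holds TPM, and the tool behind it is not given. In both tables, 6 columns each matched no sample and were left out.

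Counts were tested with edgeR 4.0.16 (R 4.3.3): filterByExpr with a minimum count of 10 kept 16248 genes, TMM normalization, 1 quasi-likelihood fit of the 24 libraries, and Benjamini-Hochberg adjusted p below 0.05. Log2 CPM used a prior count of 2. Where a group had 0 counts, 3 counts over the group were the floor. Alternatives were DESeq2 1.42.0, RLE normalization, other filters, limma 3.58.1 on log2(TPM + 0.1) and log2(TPM + 1), and leaving out libraries. The scripts were tested on simulated data. Intervals of shares are Wilson 95% and those of count ratios exact (Clopper-Pearson) 95%, and both cover counting error only. Nothing in the labels ties a letter to the same animal in several groups.

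Members and lists were chosen with earlier results of these data known. Members named with values were the most abundant of each subfamily by mean CPM, the 5 largest called changes of each comparison among members with a mean of at least 1 CPM, and members whose call differed from their cluster. Others, such as the neighbours of Krtap3-2, were named after their values were seen. Protein classes were computed from GENCODE M21 coding sequences, and promoters are from RefSeq.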

Additional observations from a re-analysis of the deposited data

Results flagged for a closer look

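In 28 of the 128 sets of 6 libraries examined (named members and the summed level, by group), the highest library stood apart from the other 5 by Dixon's 95% criterion. For normally distributed values chance gives about 1 in 20. Many of these sets hold low counts near 0, so the 28 cannot be judged by this rate. Members that share libraries are also not separate cases. Healthy library F accounted for 21 of the 28. Its summed level was 181 CPM. In that library the chromosome 16 members stood at 18.9 CPM for Krtap8-1, 17.5 CPM for Krtap7-1, 10.8 CPM for Krtap15, 9.77 CPM for Krtap11-1, 6.17 CPM for Krtap19-3, 5.66 CPM for Krtap14, 5.14 CPM for Krtap16-3, 2.92 CPM for Krtap13-1, 2.23 CPM for Krtap26-1, 1.54 CPM for Krtap27-1, 1.37 CPM for Krtap24-1 and 0.857 CPM for Krtap19-2. Members of chromosomes 11 and 7 stood at 3.94 CPM for Krtap9-3, 3.26 CPM for Krtap2-4, 2.92 CPM for Krtap4-1, 1.89 CPM for Krtap16-1, 1.03 CPM for Krtap31-1, 0.514 CPM for Krtap9-5, 0.514 CPM for Krtap5-5 and 0.171 CPM for Krtap5-2.

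In systemic JAK1i skin library F stood apart for Krtap8-1 (18.5 CPM), Krtap21-1 (6.29 CPM) and Krtap16-3 (3.31 CPM), and library D for Krtap19-1 (0.270 CPM). In 3 of the 28 cases (Krtap24-1 and Krtap5-2 in healthy F, Krtap19-1 in systemic JAK1i D) the other 5 libraries held 0 counts. Any count in the remaining library would then have stood apart, so these least of all can be read against the chance rate. In AA skin library B stood apart for Krtap1-5 (336 CPM), Krtap22-2 (152 CPM) and Krtap5-2 (27 CPM).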

How the results depend on the processing

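In AA against healthy and in systemic JAK1i against AA skin, 50 to 53 members were called under every alternative, and 52 with any single library left out. Systemic JAK1i against healthy skin stayed at 0. For 8w off treatment against systemic JAK1i skin, 28 members were called with limma on log2(TPM + 0.1), 17 without a filter and 47 on log2(TPM + 1) or after centring, and 50 to 52 with 1 library left out. Against AA skin, log2(TPM + 1) called 2 members lower and leaving out a library called 0, and against healthy skin leaving out a library gave 51. Krtap3-2 changed sign in 8w off treatment against systemic JAK1i skin (-0.42 on log2(TPM + 0.1), with or without the filter, and -0.35 on log2(TPM + 1)) and against healthy skin (-0.32 and -0.25). Uncentred log2(TPM + 0.1) shifted the median of all genes by -1.16 in 8w off treatment against systemic JAK1i skin, and called 232 genes higher and 13910 lower, where edgeR called 3144 and 2697. In AA against healthy skin it called 641 higher and 1987 lower, against 3394 and 3139 by edgeR, and in systemic JAK1i against AA skin 8564 and 603, against 3718 and 4037. The cause was not tested. With the replicate block (letters as pairs) 52, 52, 0, 51, 0 and 51 members were called, the same numbers as without it, and same-letter correlations of -0.24 to 0.41 did not show pairing. Leaving out 8w off treatment A and E, chosen after their levels were seen, gave 52 against systemic JAK1i skin. With 1 library left out, median log2 fold changes of the members moved most without healthy library F (6.93 in AA, 6.34 in 8w off treatment and 1.69 in systemic JAK1i, each against healthy skin). Without healthy D and F together they were 8.09, 7.45 and 2.82. At under 10 counts a group, as in Krtap13, differences were not detectable.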
